A study of Mus musculus with 35 samples.

Results

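The genes for the subunits, inhibitors and kinases of NF-κB were followed at the mRNA level through primary mouse cardiac fibroblasts (CFs) and mouse hearts in which the micropeptide IAMP had been knocked down or knocked out. The members were taken by gene symbol and comprise 5 subunit genes (Nfkb1, Nfkb2, Rela, Relb and Rel), 3 inhibitor genes (Nfkbia, Nfkbib and Nfkbie) and 2 kinase genes (Chuk and Ikbkb). They are 10 of the 55487 genes in the deposited tables. The series holds 35 RNA-Seq libraries, 27 of CFs and 8 of hearts. CFs from adult mice of 8 weeks were isolated by enzymatic digestion and adherence, and were transfected with a scrambled siRNA (si-NC in the labels, Scrambled here), IAMP-siR-1 or IAMP-siR-2. Untreated CFs, CFs given IL-17 and CFs given TGF-β each had 3 libraries with each siRNA, 9 per table. The labels give 24 h of siRNA followed by 24 h of IL-17, and the times for untreated and TGF-β cells are not given in the sources used here. The hearts came from C57BL/6 mice, 4 heterozygous for the IAMP mutation (HET) and 4 IAMP-KO, so every heart carried at least 1 mutant allele, and these mice were also 8 weeks old. The mutation is a frameshift made by CRISPR-Cas9, is germ-line and is not restricted to fibroblasts. The labels do not say whether the 3 libraries of a CF group came from separate cultures, so the p-values below measure the spread between libraries, which may be technical.

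NF-κB transcription factors are dimers of Rel-family subunits. In resting cells most dimers are held in the cytoplasm by IκB proteins, among them IκBα, IκBβ and IκBε, which Nfkbia, Nfkbib and Nfkbie encode. Cytokine receptors activate the IκB kinase complex, whose catalytic subunits are IKKα (Chuk) and IKKβ (Ikbkb), and phosphorylated IκB is ubiquitinated and degraded, so the dimer enters the nucleus. The pathway is regulated first at the level of protein, and mRNA levels such as those measured here do not show it directly. Several of the genes are themselves textbook NF-κB targets, Nfkbia above all, whose induction returns the dimer to the cytoplasm. In fibroblasts the pathway drives the chemokine and cytokine genes that attract leukocytes.

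The promoters are shown because several of these genes are known targets of NF-κB itself, and the letters of its binding motif can be looked for in them. RefSeq promoter windows of the GRCm38.p6 build, which run from 250 bases before to 50 bases after a gene's start, were at hand for 7 of the 10 members. The 10-base κB consensus was searched on both strands, and overlapping matches were counted separately. It occurred in the windows of 4 members, Nfkb2, Rel, Nfkbia and Nfkbie, and not in those of Rela, Nfkbib and Chuk. Of the 4 with a match, Nfkbia, Nfkb2 and Rel rose with IL-17 and Nfkbie did not pass the test, and of the 3 without, Rela and Nfkbib rose and Chuk did not pass it. Of the 27025 genes with a window, 9.55% held a match in any window. By window, 6 of the 9 windows of the members and 8.46% of all 32851 windows held one. Nfkb2 supplied 3 of these 6, and its later windows overlap and share a match, so the windows are not independent. A match is a description of the letters, not evidence of binding, and no match says only that the consensus is not in this window. The 250 bases before the start are printed 5′ to 3′ on the gene's strand, with κB matches in capitals, and Rela is given as a member without one.
Nfkbia (chr12:55492648-55492897, minus strand): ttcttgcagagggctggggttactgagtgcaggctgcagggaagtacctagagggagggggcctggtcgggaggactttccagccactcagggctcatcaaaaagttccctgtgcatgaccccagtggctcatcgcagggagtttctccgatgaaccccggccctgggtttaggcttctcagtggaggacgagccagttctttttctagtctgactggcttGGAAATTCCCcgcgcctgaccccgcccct
Nfkb2 (chr19:46304487-46304736, plus strand): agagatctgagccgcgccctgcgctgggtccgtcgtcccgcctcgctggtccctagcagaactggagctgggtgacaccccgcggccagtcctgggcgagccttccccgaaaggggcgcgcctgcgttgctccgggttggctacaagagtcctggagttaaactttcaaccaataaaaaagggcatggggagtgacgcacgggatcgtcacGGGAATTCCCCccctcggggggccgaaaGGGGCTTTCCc
Rel (chr11:23770970-23771219, minus strand): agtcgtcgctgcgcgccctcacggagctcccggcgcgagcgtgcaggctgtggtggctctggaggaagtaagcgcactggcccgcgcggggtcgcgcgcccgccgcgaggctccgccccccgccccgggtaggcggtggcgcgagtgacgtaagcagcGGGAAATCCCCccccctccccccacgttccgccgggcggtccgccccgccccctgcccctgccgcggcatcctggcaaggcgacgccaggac
Nfkbie (chr17:45555450-45555699, plus strand): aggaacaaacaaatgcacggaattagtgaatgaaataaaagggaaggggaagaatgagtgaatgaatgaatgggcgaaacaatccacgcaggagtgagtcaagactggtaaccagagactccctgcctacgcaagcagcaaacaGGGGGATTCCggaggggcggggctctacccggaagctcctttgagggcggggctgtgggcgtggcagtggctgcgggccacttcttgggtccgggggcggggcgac
Rela (chr19:5637291-5637540, plus strand): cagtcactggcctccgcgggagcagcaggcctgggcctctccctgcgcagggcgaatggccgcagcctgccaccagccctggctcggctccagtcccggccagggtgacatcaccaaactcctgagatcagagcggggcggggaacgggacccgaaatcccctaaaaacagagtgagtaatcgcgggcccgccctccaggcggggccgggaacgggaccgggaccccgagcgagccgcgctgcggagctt
In the Nfkbia window the match began at position 222, counted from 1 at the window's 5′ end, and in Nfkbie at position 145. Nfkb2 had matches from positions 212, 213 and 240 of its first window, and each of its other 2 windows, at later start sites, also held at least 1. In Rel the matches at positions 159 and 160 overlapped. Windows for Nfkb1, Relb and Ikbkb were not analysed here. In GRCm38, Nfkb1 lies at chr3:135584655-135691547, Relb at chr7:19606217-19629438, Nfkbib at chr7:28758251-28767512, Chuk at chr19:44073335-44107480 and Ikbkb at chr8:22659212-22706589, all on the minus strand.

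A CF library held 104139670 to 119232309 estimated counts and a heart 23497027 to 23857313 counts. The targeted gene, 4930523C07Rik, lay at 16.8 to 25.7 CPM in the 9 Scrambled libraries, at 2.37 to 4.58 CPM with IAMP-siR-1 and at 1.68 to 3.72 CPM with IAMP-siR-2. In hearts it was at 15.9 to 18.8 CPM in HET and 15.2 to 17.3 CPM in IAMP-KO, and a frameshift need not change the transcript, so this does not check the genotype labels. Fibroblast markers summed to 12970 to 21310 CPM in the CF libraries. Summed macrophage markers were at 60.9 to 89.4 CPM in untreated and IL-17 CFs and at 131 to 170.1 CPM in the TGF-β table. None of the 10 macrophage marker genes was at 0. Lymphocyte markers summed to at most 0.463 CPM in the CF libraries. Cardiomyocyte markers summed to 90.4 to 98.0 CPM in untreated Scrambled CFs, 42.4 to 47.4 CPM with IAMP-siR-1 and 28.2 to 33.4 CPM with IAMP-siR-2. The part of these markers in the values of the members was not tested. In such bulk samples, fewer cells of a type and less RNA per cell cannot be told apart.

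Levels are given as CPM, each count scaled to the size of its library, after TMM normalization of all CF libraries together, and differences as log2 fold changes. Calls rest on the quasi-likelihood test of edgeR, with p-values adjusted over all genes tested by the Benjamini-Hochberg method and a limit of 0.05. A threshold on the fold change was applied as a second rule. It was an absolute log2 fold change of 1 or, within the IL-17 and TGF-β tables, a lower limit that corresponds to a 1.5-fold change. The study's methods name the lower limit for IL-17 CFs, and its use for TGF-β CFs was a choice made here. Nearly every difference described below between siRNAs is smaller than that.

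In untreated Scrambled CFs, Rela had the largest share of subunit mRNA once levels were divided by gene length. The gene in second place depended on the length used. With the union of all annotated exons as the length, Rela supplied 48.1% of the summed per-length level (TPM) of the 5 subunit genes in the median untreated Scrambled library, Nfkb2 23.9%, Nfkb1 16.6%, Relb 8.28% and Rel 2.57%. With the longest annotated transcript as the length, the order changed to Rela 37.6%, Nfkb1 33.6%, Nfkb2 19.7%, Relb 6.83% and Rel 1.79%, since the union of Nfkb1 exons spans 12061 bases and its longest transcript 4149. In untreated CFs with IAMP-siR-1, the longest transcript put Nfkb1 first, at 88.8 TPM, and Rela second, at 84.1 TPM. Rel, the subunit best known from lymphocytes, was lowest under both lengths. Among the inhibitors, per-length levels by the union in untreated Scrambled CFs were 42.3 TPM for Nfkbia, 35.2 TPM for Nfkbib and 7.95 TPM for Nfkbie. Of the kinases, Chuk stood at 68.4 TPM and Ikbkb at 9.57 TPM by the union, and at 76.6 and 29.0 TPM by the longest transcript. Hearts had a larger share of Rela, 56.2% by the union in the median HET heart and 47.5% by the longest transcript. Heart and CF libraries come from separate tables with counts of different kinds, and this difference was not tested.

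**Figure D1:**
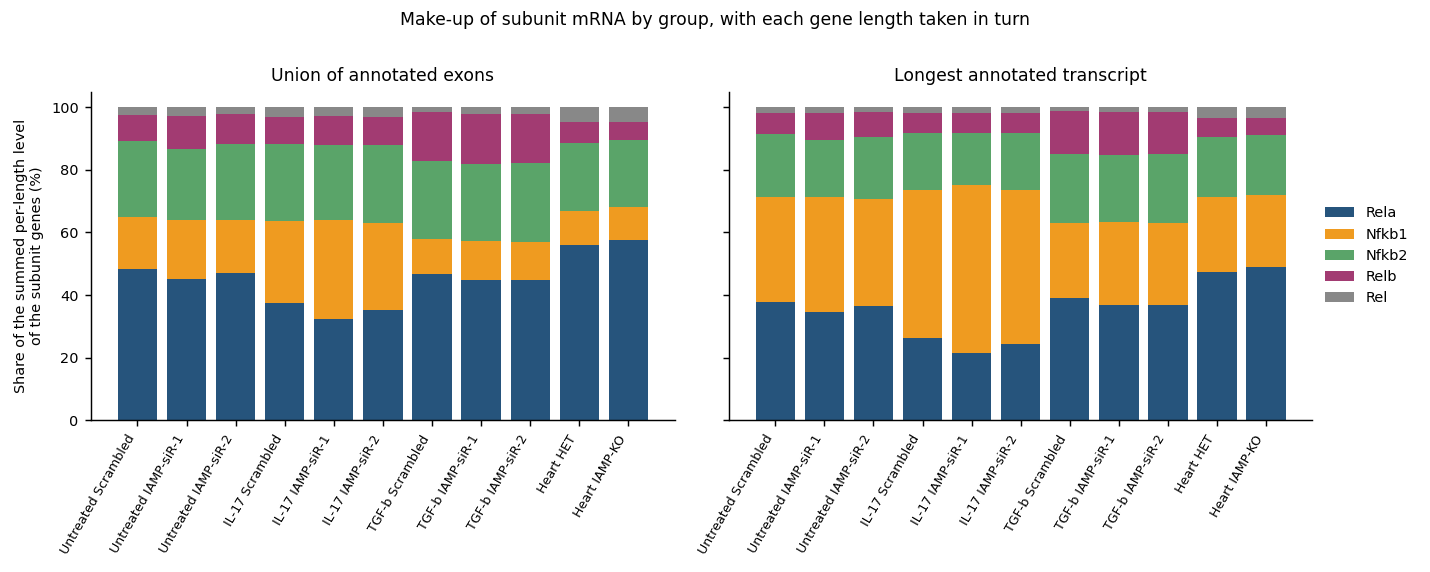
Share (%) of each subunit gene in the summed per-length level (TPM) of the 5 subunit genes, by group (bars), with the union of annotated exons as gene length on the left and the longest transcript on the right. The Nfkb1 share rises in the 3 IL-17 groups and the Relb share in the 3 TGF-β groups under both lengths, whereas the height of Nfkb1 itself depends on the length chosen.

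The first question was how these genes respond to IL-17, the cytokine the study used to inflame the cells. Scrambled CFs given IL-17 had 8 members higher than untreated Scrambled CFs and 0 lower, where 6.13% of all 22359 genes tested were higher and 6.10% lower. No member fell at an unadjusted p below 0.05 in edgeR, and DESeq2 also gave 8 higher and 0 lower. By the second rule, with a log2 fold change of 1 or more in size, 2 members were called, Nfkbia and Nfkb1, where 1.10% of all genes were called higher and 0.353% lower. The cells came from different tables, so the table and the stimulus cannot be told apart.

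Nfkbia showed the largest rise. It stood at 18.9, 17.0 and 18.9 CPM in the untreated Scrambled libraries and at 59.4, 61.0 and 61.1 CPM with IL-17, a log2 fold change of 1.73 (SE 0.0508, adjusted p = 1.07e-22 by edgeR). The groups did not overlap. Nfkb1, which encodes a precursor that is processed to a DNA-binding subunit, rose from 123, 119 and 121 CPM to 308.6, 305.6 and 302.7 CPM, a log2 fold change of 1.34 (SE 0.0296, adjusted p = 4.39e-26 by edgeR). Rel rose from between 11.2 and 11.9 CPM to between 19.7 and 24.5 CPM, a log2 fold change of 0.93 (SE 0.0821). Relb and Nfkb2, which encode the pair of subunits used in the alternative NF-κB pathway, rose by log2 fold changes of 0.74 and 0.70. Relb was at 18.8 to 19.9 CPM untreated and at 31.1 to 32.8 CPM with IL-17, and Nfkb2 at 63.7 to 70.7 and 107 to 109 CPM. Annotated exons of Psd and AC114539.1 overlap those of Nfkb2 on the other strand, and exons of Ccer2 and Sirt2 those of Nfkbib. Whether the counting used strand is not given in the sources used here, so reads in the shared bases cannot be told apart. Of 4584 exonic bases of Nfkb2, 299 are shared with Psd and 531 with AC114539.1. Of 2169 exonic bases of Nfkbib, 314 are shared with Ccer2 and 42 with Sirt2.

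The remaining members moved less. Nfkbib, Rela and Ikbkb rose by log2 fold changes of 0.39, 0.31 and 0.19, each with every stimulated library above every untreated library. Chuk did not pass the test (log2 fold change −0.02, SE 0.0478), with 91.7 to 94.3 CPM untreated and 90.4 to 93.4 CPM with IL-17. Nfkbie did not pass it either (0.09, SE 0.0932). Because Nfkbia rose more than Rela, the ratio of Nfkbia to Rela CPM went from 0.205 ± 0.00615 (SD, n = 3) to 0.546 ± 0.00986 (SD, n = 3). The ratio of Nfkb2 to Nfkb1 CPM fell from 0.551 ± 0.0218 (SD, n = 3) to 0.353 ± 0.00305 (SD, n = 3). These ratios compare a gene pair between groups and not the abundance of their mRNAs with each other.

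The TGF-β table gave another order. Scrambled CFs of that table had 7 members higher and 1 lower than untreated Scrambled CFs, where 28.0% of all genes tested were called higher and 27.5% lower. Here too the table and the stimulus cannot be told apart. Between untreated and TGF-β Scrambled CFs the median summed level of cardiomyocyte markers went from 95.3 to 5.57 CPM, that of endothelial markers from 51.1 to 92.3 CPM and that of macrophage markers from 62.2 to 163 CPM, and their part was not tested. At this setting 5 members passed the threshold on the fold change as well, Nfkbia, Nfkbie, Relb and Nfkbib higher and Chuk lower, where 11.7% of genes were called higher and 9.14% lower.

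All 3 inhibitor genes were higher. Nfkbia was at 67.9, 73.3 and 70.4 CPM, a log2 fold change of 1.95 over untreated Scrambled (SE 0.0511, adjusted p = 4.08e-25 by edgeR). Nfkbie, which IL-17 had left near its untreated level, went from 6.86, 5.19 and 7.43 CPM to 21.2, 21.4 and 22.5 CPM, a log2 fold change of 1.74 (SE 0.0935, adjusted p = 5.13e-17 by edgeR). Nfkbib rose from 19.3 to 21.6 CPM up to 42.2 to 43.0 CPM, a log2 fold change of 1.05 (SE 0.0515). Relb was at 51.6, 53.6 and 55.6 CPM, a log2 fold change of 1.48 (SE 0.0634, adjusted p = 1.34e-19 by edgeR), and Nfkb2 and Rela were higher by 0.59 and 0.50. Nfkb1 and Rel, both raised with IL-17, did not pass the test here, with log2 fold changes of −0.02 (SE 0.0293) and −0.12 (SE 0.0828). The 2 kinase genes went apart. Chuk lay at 40.2, 49.7 and 44.4 CPM, below every untreated Scrambled library, a log2 fold change of −1.06 (SE 0.0488, adjusted p = 9.35e-19 by edgeR), whereas Ikbkb was higher by 0.18 (SE 0.039). The ratio of Ikbkb to Chuk CPM was 0.525 ± 0.0143 (SD, n = 3) untreated, 0.604 ± 0.0184 (SD, n = 3) with IL-17 and 1.25 ± 0.121 (SD, n = 3) in the TGF-β table.

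**Figure D2:**
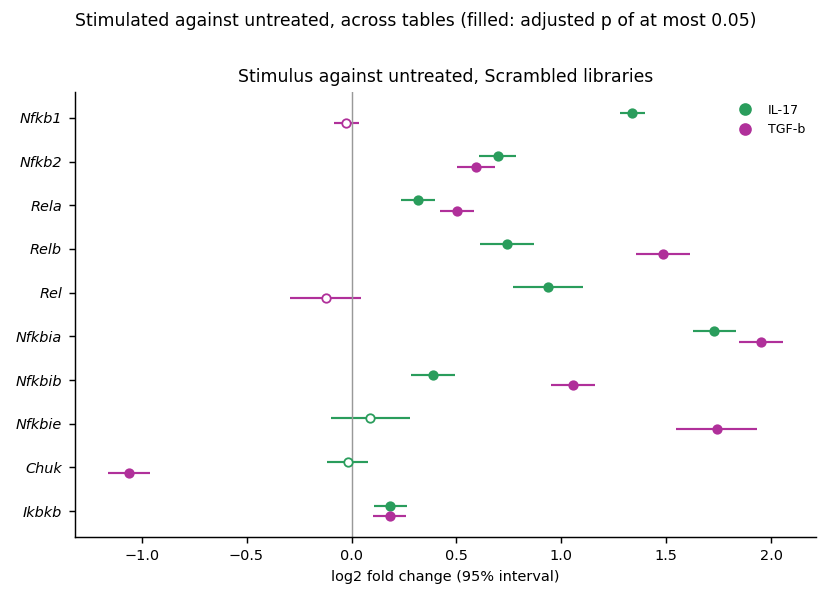
Log2 fold change (x axis, with 95% interval) of each member in Scrambled CFs given IL-17 (green) or TGF-β (magenta, written TGF-b) against untreated Scrambled CFs. Filled points have an adjusted p of at most 0.05. Nfkb1 and Rel lie far to the right with IL-17 and near 0 with TGF-β, Nfkbie the reverse, and Chuk is the single member far to the left.

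The study's main question was what loss of IAMP does to inflammatory genes in CFs. In untreated CFs, IAMP-siR-1 left 4 members higher and 1 lower than Scrambled, where 19.5% of the 19669 genes tested were called higher and 20.4% lower. IAMP-siR-2 left 8 higher and 0 lower, where 24.4% were called higher and 25.0% lower, and 0 members were lower at an unadjusted p below 0.05 or in DESeq2. By the second rule 0 members were called with either siRNA, where 2.15% of genes were called higher and 2.61% lower with IAMP-siR-1, and 3.42% and 7.23% with IAMP-siR-2. The median log2 fold change of the 10 members was 0.10 with IAMP-siR-1 and 0.31 with IAMP-siR-2, against −0.02 over all genes with each. The pair of comparisons shares its Scrambled libraries. Summed macrophage markers were at 61.4 to 65.5 CPM with Scrambled, 60.9 to 64.8 CPM with IAMP-siR-1 and 78.4 to 82.0 CPM with IAMP-siR-2, and their part was not tested.

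Ikbkb, the kinase that does most of the IκB phosphorylation downstream of inflammatory cytokines, rose with both siRNAs. It stood at 49.2, 49.9 and 47.7 CPM with Scrambled, 60.2, 57.3 and 57.7 CPM with IAMP-siR-1 and 72.5, 74.5 and 70.3 CPM with IAMP-siR-2. The 3 groups did not overlap, and the log2 fold changes were 0.25 (SE 0.0387, adjusted p = 5.89e-05 by edgeR) and 0.55 (SE 0.0387, adjusted p = 3.18e-09 by edgeR). Relb went from 19.9, 18.8 and 18.8 CPM to 25.6, 22.9 and 25.5 CPM with IAMP-siR-1 and to 26.2, 29.1 and 29.1 CPM with IAMP-siR-2, log2 fold changes of 0.36 (SE 0.0608) and 0.53 (SE 0.0608). Nfkb1 rose by 0.15 (SE 0.0299) and 0.31 (SE 0.0299), with 132 to 136 CPM under IAMP-siR-1 and 149 to 156 CPM under IAMP-siR-2. These 3 genes rose with both siRNAs in untreated cells.

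Of the other members, Rel did not pass the test with either siRNA, at 0.05 (SE 0.0772) with IAMP-siR-1 and −0.01 (SE 0.0773) with IAMP-siR-2. For the rest, the call against Scrambled was not the same with the 2 siRNAs. Nfkbib and Chuk rose with IAMP-siR-2, by 0.51 (SE 0.0606) and 0.31 (SE 0.0336), and did not pass the test with IAMP-siR-1, at −0.01 (SE 0.0608) and 0.01 (SE 0.0337). Nfkbib lay at 19.3 to 21.6 CPM with Scrambled, 19.9 to 21.2 CPM with IAMP-siR-1 and 27.9 to 31.5 CPM with IAMP-siR-2. Nfkb2 rose with IAMP-siR-2 (0.27, SE 0.0469) and stood at −0.09 (SE 0.047) with IAMP-siR-1, a value that did not pass the test. Rela, the main transactivating subunit, was lower with IAMP-siR-1 (−0.10, SE 0.0383, adjusted p = 0.0452 by edgeR) and higher with IAMP-siR-2 (0.24, SE 0.0382, adjusted p = 4.57e-05 by edgeR). Its fall lost its call without filtering, with the replicate block, in a fit of the 2 groups alone, and without any of 5 single libraries. Nfkbia rose with IAMP-siR-1 (0.24, SE 0.061), from 17.0 to 18.9 CPM up to 21.6 to 21.8 CPM. With IAMP-siR-2 it stood at 19.4 to 21.2 CPM (0.13, SE 0.0611), above every Scrambled library without passing the test. Nfkbie rose with IAMP-siR-2 (0.52, SE 0.119). With IAMP-siR-1 Nfkbie lay above every Scrambled library without passing the test (0.29, SE 0.119). Set against each other directly, 7 members were higher with IAMP-siR-2 than with IAMP-siR-1 and 0 lower, where 22.7% of genes were called higher and 22.8% lower. No member was lower at an unadjusted p below 0.05, and DESeq2 gave the same counts. The largest of these differences was that of Nfkbib (0.52, 95% interval 0.39 to 0.65). That of Relb (0.17) was not called without the second IAMP-siR-1 library (0.13) or without IAMP-siR-2 library 2 (0.16) or 3 (0.15). For the members not called, Nfkbia, Rel and Nfkbie, the intervals ran from −0.24 to 0.02, from −0.23 to 0.10 and from −0.02 to 0.48.

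Under IL-17 the second siRNA moved every member. Against Scrambled, IAMP-siR-2 left 9 members higher and 1 lower, where 25.0% of 19906 genes were called higher and 25.6% lower. IAMP-siR-1 left 3 higher and 1 lower, where 20.3% were called higher and 21.9% lower. The median log2 fold change of the members was 0.27 with IAMP-siR-2 and 0.09 with IAMP-siR-1, against −0.02 and −0.0026 over all genes. In these IL-17 CFs summed macrophage markers were at 61.6 to 62.8 CPM with Scrambled, 68.9 to 73.8 CPM with IAMP-siR-1 and 80.2 to 89.4 CPM with IAMP-siR-2. Cardiomyocyte markers summed to 69.96 to 76.5 CPM, 32.5 to 35.9 CPM and 23.6 to 25.8 CPM, and the part of either list was not tested. By the second rule 1 member was called, Nfkbie with IAMP-siR-2, where 8.06% of genes were called higher and 13.7% lower. With IAMP-siR-1 these were 5.58% and 7.97%. The study reports that in IL-17 CFs knockdown raised neither NF-κB signaling genes, measured by qPCR, nor phosphorylation of pathway proteins. Its primer list holds Nfkb1, Nfkbia, Chuk, Ikbkb and Rela. Those qPCR values were not compared with the RNA-Seq values given here.

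Nfkbia, the inhibitor that IL-17 had raised most, went in opposite directions with the 2 siRNAs. Its CPM was 59.4, 61.0 and 61.1 with Scrambled, 67.2, 65.9 and 68.3 with IAMP-siR-1 and 48.2, 45.2 and 48.9 with IAMP-siR-2. The 3 groups did not overlap, IAMP-siR-2 being lowest. The log2 fold changes were 0.14 (SE 0.0399, adjusted p = 0.0086 by edgeR) and −0.37 (SE 0.0402, adjusted p = 4.77e-07 by edgeR), and the difference between the siRNAs was −0.51 (95% interval −0.60 to −0.43). The ratio of Nfkbia to Rela CPM, 0.546 ± 0.00986 (SD, n = 3) with Scrambled, was 0.71 ± 0.0441 (SD, n = 3) with IAMP-siR-1 and 0.389 ± 0.0236 (SD, n = 3) with IAMP-siR-2. The other inhibitors rose with IAMP-siR-2, Nfkbie from 6.71, 6.31 and 7.73 CPM to 11.76, 11.01 and 10.97 CPM (log2 fold change 0.68, SE 0.0872, adjusted p = 3.47e-06 by edgeR) and Nfkbib from 26.56 to 26.96 CPM up to 36.8 to 39.7 CPM (0.48, SE 0.0493). Neither passed the test with IAMP-siR-1.

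Both kinase genes rose with IAMP-siR-2 in IL-17 CFs. Ikbkb went from 56.0, 54.0 and 56.9 CPM to 74.5, 79.1 and 79.4 CPM (0.46, SE 0.0369), and Chuk from 90.4, 92.5 and 93.4 CPM to 119, 123 and 117 CPM (0.35, SE 0.0319). With IAMP-siR-1, Chuk rose by 0.09 (SE 0.032, adjusted p = 0.0408 by edgeR), a call lost when any of 5 single libraries was left out, and Ikbkb did not pass the test (0.09, SE 0.037). Of the subunits, Nfkb1 rose with both siRNAs, from 302.7 to 308.6 CPM up to 354 to 369 CPM with IAMP-siR-1 (0.23, SE 0.0251) and to 372 to 382 CPM with IAMP-siR-2 (0.28, SE 0.0251). Nfkb2, Relb, Rel and Rela rose with IAMP-siR-2, by 0.23, 0.25, 0.26 and 0.12. The calls of Rel and Rela there were lost without the second IAMP-siR-2 library, at 0.17 and 0.10. The Rel call was also lost without the second Scrambled library, at 0.19, and that of Rela without the first, at 0.08. Rela fell with IAMP-siR-1, from 107, 113 and 113 CPM to 91.19, 99.97 and 93.12 CPM (−0.24, SE 0.0376, adjusted p = 5.99e-05 by edgeR). By edgeR IAMP-siR-2 exceeded IAMP-siR-1 in 8 members and was below it in 1, Nfkbia, where 23.1% of genes were called higher and 23.1% lower. DESeq2 gave 9 members higher and 1 lower. The call of Relb (0.16) was lost without any of 5 single libraries. For the last member, Nfkb1, the difference was 0.05 (95% interval −0.0041 to 0.10).

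In the TGF-β table fewer members passed the test of knockdown against Scrambled. IAMP-siR-1 left 2 members higher and 1 lower, where 11.7% of 19891 genes were called higher and 11.4% lower, and IAMP-siR-2 left 2 higher and 1 lower, where 15.1% and 14.8% were. By the second rule 0 members were called, where 2.45% of genes were called higher and 1.91% lower with IAMP-siR-1, and 2.07% and 5.44% with IAMP-siR-2. Rel was the member that rose with both siRNAs, from 9.55, 11.7 and 10.5 CPM to 14.1, 12.5 and 13.1 CPM with IAMP-siR-1 (0.32, SE 0.0815, adjusted p = 0.00733 by edgeR) and to 13.1, 12.5 and 13.3 CPM with IAMP-siR-2 (0.29, SE 0.0815, adjusted p = 0.0108 by edgeR). Without the first TGF-β Scrambled library the latter was 0.22 and no longer called. Summed macrophage markers were at 162 to 170.1 CPM with Scrambled, 131 to 146 CPM with IAMP-siR-1 and 145 to 151 CPM with IAMP-siR-2.

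Nfkbia rose with IAMP-siR-1 under TGF-β, from 67.9, 73.3 and 70.4 CPM to 80.3, 75.4 and 86.5 CPM (0.20, SE 0.0496), a call lost without the third IAMP-siR-1 library (0.14). With IAMP-siR-2 it was at 71.2, 72.5 and 67.8 CPM, a log2 fold change of 0.00 (SE 0.0497) that took either sign with the settings. Nfkbie fell with IAMP-siR-2, from between 21.2 and 22.5 CPM to 19.2, 18.3 and 18.0 CPM (−0.23, SE 0.0597, adjusted p = 0.0077 by edgeR). Rela fell with IAMP-siR-1 (−0.12, SE 0.0372, adjusted p = 0.0232 by edgeR), a call lost without any of 4 single libraries. Nfkb1 rose with IAMP-siR-2 (0.12, SE 0.0354, adjusted p = 0.0158 by edgeR), and this was lost without the first Scrambled library (0.11) or the first IAMP-siR-2 library (0.09). Chuk, Ikbkb, Nfkbib, Nfkb2 and Relb did not pass the test with either siRNA, with log2 fold changes between −0.12 and 0.11. Between the siRNAs, 0 members were higher with IAMP-siR-2, at an unadjusted p below 0.05 and in DESeq2 as well, and 2, Nfkbia and Nfkbie, were lower, where 12.0% of genes were called in each direction.

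**Figure D3:**
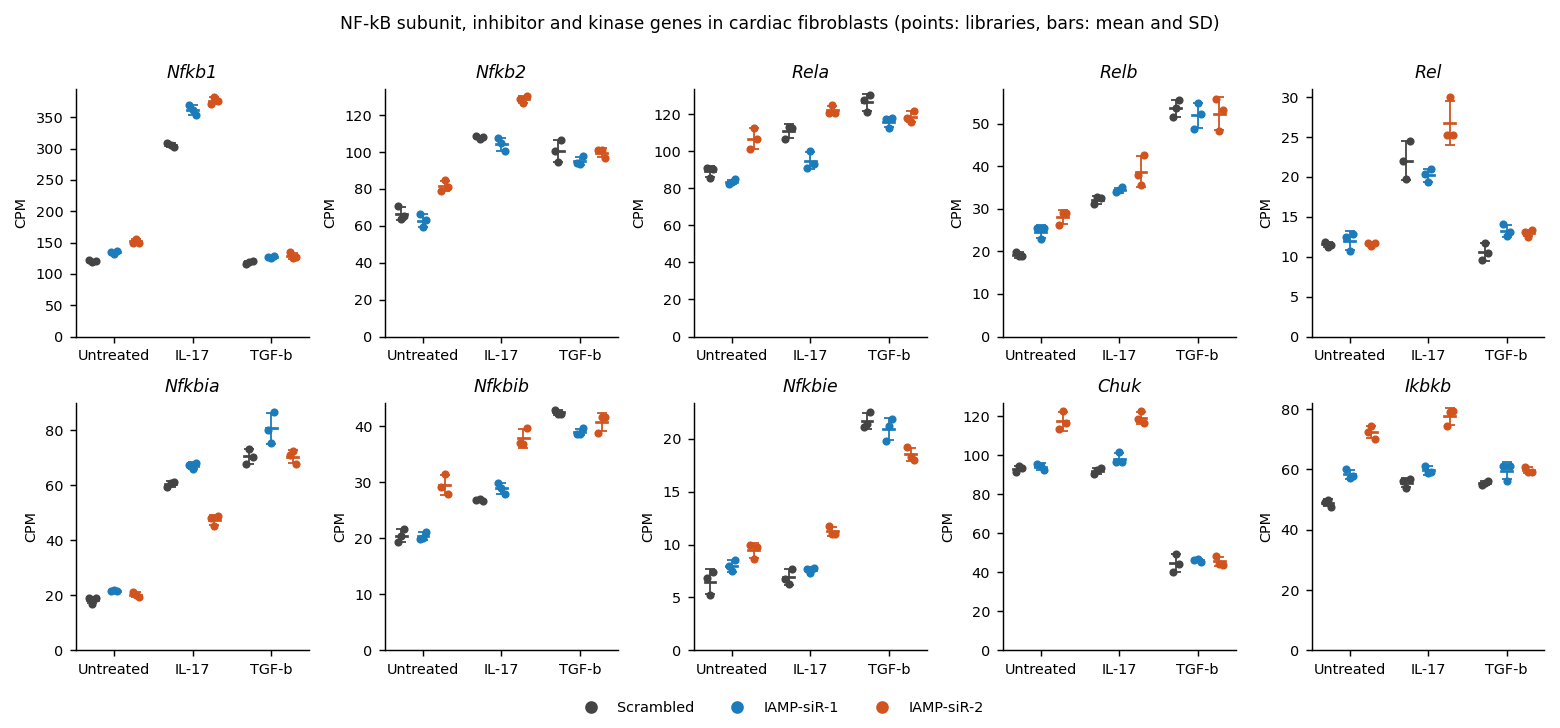
CPM of each member (y axis, from 0) in the 27 CF libraries, in 3 blocks for untreated, IL-17 and TGF-β (TGF-b) cells, with points for libraries and bars for the mean and SD of 3. The orange IAMP-siR-2 points stand above Scrambled in most panels in the untreated and IL-17 blocks, and in the TGF-β block the IAMP-siR-2 points of Nfkbie lie lowest, at 18.0 to 19.2 CPM, the IAMP-siR-1 points of Nfkbia highest, at 75.4 to 86.5 CPM, and those of Rel with both siRNAs above Scrambled.

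Rela was called lower with IAMP-siR-1 in all 3 tables. The call was lost without any of 5 single libraries in untreated CFs and of 4 under TGF-β. The values with IAMP-siR-1 were 82.3, 83.1 and 84.8 CPM in untreated CFs, where Scrambled was at 91.0, 85.8 and 90.6 CPM, and 117, 113 and 118 CPM under TGF-β, where Scrambled was at 128, 121 and 130.1 CPM. Every IAMP-siR-1 library lay below every Scrambled library of its table in all 3. Nfkbia was the member called higher with IAMP-siR-1 in all 3 tables.

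Whether the knockdown acted differently with a stimulus was tested as the difference between its log2 fold changes in the stimulated and the untreated table, within 1 fit. For IL-17 and IAMP-siR-1, 0 members differed, where 0.760% of genes were called higher and 0.971% lower. At an unadjusted p below 0.05 edgeR had 1 member higher and 3 lower, and DESeq2 called 0. For IL-17 and IAMP-siR-2 the single member called was Nfkbia, whose change was lower by 0.50 with IL-17 than without (log2 difference −0.50, SE 0.0704, adjusted p = 1.84e-05 by edgeR), where 0.568% of genes were called higher and 1.07% lower. For TGF-β and IAMP-siR-1, Relb (−0.41, SE 0.088, adjusted p = 0.000736 by edgeR) and Ikbkb (−0.15, SE 0.0551, adjusted p = 0.0486 by edgeR) were lower, where 9.20% were called higher and 10.3% lower. The call of Ikbkb was lost in 6 of the other ways of fitting. For TGF-β and IAMP-siR-2, 8 members were lower and 0 higher, where 14.2% of genes were called higher and 15.3% lower. At an unadjusted p below 0.05 there were 9 lower and 1 higher, and DESeq2 gave 8 and 0. The largest were Nfkbie (−0.77, SE 0.129, adjusted p = 1.54e-05 by edgeR), Nfkbib (−0.59, SE 0.072) and Relb (−0.58, SE 0.088), followed by Ikbkb, Rela, Chuk, Nfkb2 and Nfkb1 at −0.46 to −0.21. Rel was the exception, with a difference of 0.28 (SE 0.117, adjusted p = 0.0694 by edgeR). The targeted gene itself fell less under TGF-β, by 2.65 on the log2 scale with IAMP-siR-2 against 3.69 in untreated cells, a difference of 1.02 (SE 0.157). Its part in the smaller changes of the members was not tested.

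**Figure D4:**
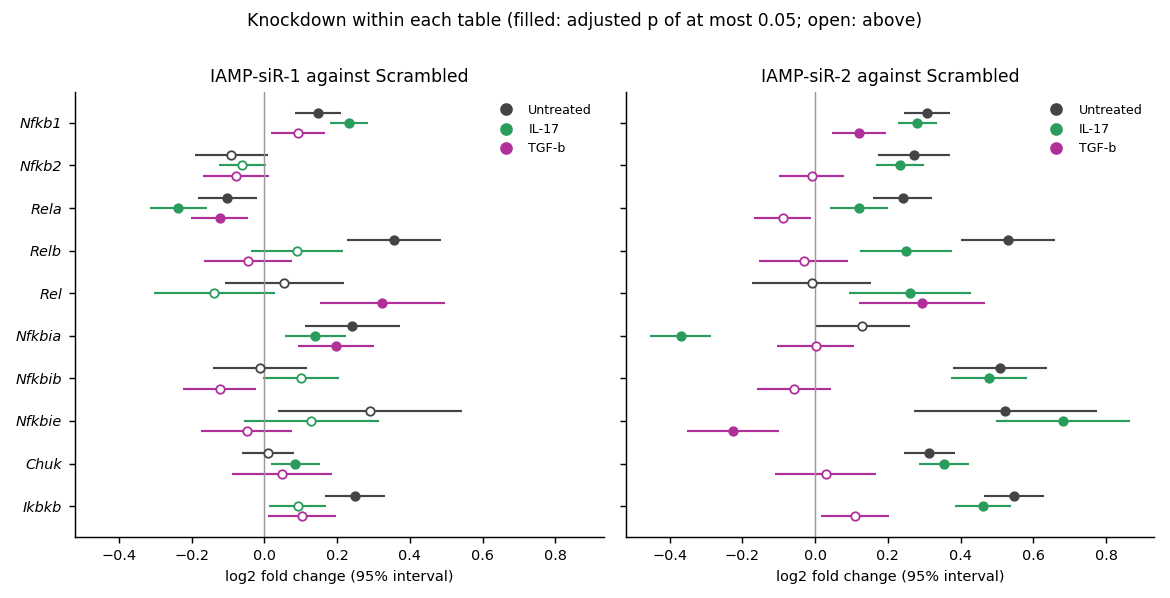
Log2 fold change (x axis, with 95% interval) of each member for IAMP-siR-1 (left) and IAMP-siR-2 (right) against Scrambled, in untreated (grey), IL-17 (green) and TGF-β (magenta) CFs. Filled points have an adjusted p of at most 0.05, and on the right the grey and green points of 8 members lie to the right of 0, the magenta point of Nfkbie lies at −0.23, and the green point of Nfkbia at −0.37.

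Other genes of the pathway were taken from 5 lists of 43 genes in the tables, upstream kinases, adaptors and ubiquitin ligases, nuclear IκB proteins, feedback inhibitors and the IκB ubiquitin ligase. All 3 nuclear IκB proteins were higher with IL-17, where 6.13% of all genes were called higher. Nfkbiz, a nuclear cofactor of NF-κB, went from 53.9 to 56.4 CPM up to 321 to 334 CPM (log2 fold change 2.58, SE 0.0425), and Bcl3, which binds Nfkb1 and Nfkb2 homodimers, from 3.21 to 4.48 CPM up to 27.9 to 32.5 CPM (3.00, SE 0.0907). Bcl3 also rose with knockdown in untreated CFs, to 6.81 to 7.10 CPM with IAMP-siR-1 (0.89, SE 0.108) and 16.6 to 19.4 CPM with IAMP-siR-2 (2.27, SE 0.109), a larger change than that of any member. Under IL-17 it fell with IAMP-siR-1 (−0.30, SE 0.0579) and rose with IAMP-siR-2 (0.33, SE 0.0575). Of 12 upstream kinases, 4 rose and 1 fell with IL-17, where 6.13% of all genes were called higher and 6.10% lower. Ikbke, the IκB kinase relative of the interferon pathway, rose by 1.03 (SE 0.0433) with IL-17, and by 0.93 (SE 0.056) with IAMP-siR-2 in untreated CFs. The noncanonical kinase gene Map3k14 fell with IL-17 (−0.51, SE 0.0766).

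Of 10 feedback inhibitors, 4 rose and 1 fell with IL-17, beside the same 6.13% and 6.10% of all genes. Zc3h12a, whose product degrades cytokine mRNAs, went from 9.69 to 11.5 CPM up to 147 to 158 CPM (3.86, SE 0.0496), and Tnip1 and Tnfaip3 rose by 0.98 and 0.53. With IAMP-siR-2 under IL-17, Tnfaip3, the deubiquitinase A20 and a textbook NF-κB target like Nfkbia, rose further, from 27.2 to 31.3 CPM up to 62.5 to 69.7 CPM (1.16, SE 0.0511), where Nfkbia fell. Cyld, another deubiquitinase, fell with IAMP-siR-2 (−0.78, SE 0.0502). Of 13 adaptors and ubiquitin ligases, 7 rose and 1 fell with IL-17, again beside 6.13% and 6.10% of all genes. Traf1 rose by 1.10, Birc2 by 0.69 and Birc3 by 0.58. Of the 5 genes of the IκB ubiquitin ligase that were measured, 4 fell with IAMP-siR-1 under IL-17, Rbx1 most (−0.45, SE 0.0381), and 0 rose in edgeR. In that comparison 20.3% of all genes were called higher and 21.9% lower. Skp1a rose with IAMP-siR-2, by 0.43 in untreated and 0.47 in IL-17 CFs. In untreated CFs with IAMP-siR-2, Fbxw11 also rose (0.28) and Rbx1 fell (−0.21).

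Knockdown moved genes of these lists in both directions, as it did all genes, of which 19.5% were called higher and 20.4% lower with IAMP-siR-1 in untreated CFs and 24.4% and 25.0% with IAMP-siR-2. Under IL-17 these shares were 20.3% and 21.9% and then 25.0% and 25.6%, and under TGF-β 11.7% and 11.4% and then 15.1% and 14.8%. Of the 12 upstream kinases, 5 rose and 3 fell with IAMP-siR-1 in untreated CFs and 4 rose and 3 fell with IAMP-siR-2, with 5 and 3 and then 4 and 4 under IL-17, and 3 and 3 and then 3 and 2 under TGF-β. Of the 13 adaptors and ubiquitin ligases, 6 rose and 3 fell with IAMP-siR-1 and 6 rose and 2 fell with IAMP-siR-2 in untreated CFs, 5 and 4 and then 6 and 4 under IL-17, and 5 and 3 and then 3 and 1 under TGF-β. Birc2, a ubiquitin ligase of the TNF receptor complex, rose in untreated CFs with both siRNAs, by 0.44 (SE 0.0514) and 0.65 (SE 0.0514). Of the 10 feedback inhibitors, 4 rose and 4 fell with IAMP-siR-1 under IL-17, and 5 rose and 5 fell with IAMP-siR-2. In hearts 0 genes of these lists were called in edgeR, where 0% of all genes were.

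A list of 30 genes known as NF-κB targets was set beside the members. It was chosen with earlier results of these data known, so the counts below describe the list and do not test it. Whether NF-κB drove these genes here was not tested. With IL-17, 23 rose and 0 fell in edgeR, where 6.13% of all genes were called higher and 6.10% lower, with a median log2 fold change of 1.79 against −0.01 over all genes. Cxcl1, a neutrophil chemoattractant, went from 1.76 to 2.75 CPM up to 308.7 to 344.1 CPM. Under TGF-β, 24 were higher and 4 lower than untreated, where 28.0% of all genes were called higher and 27.5% lower, and Saa3, an acute-phase gene, lay at 203 to 236 CPM there against 0.316 to 0.698 CPM with IL-17. With IAMP-siR-1, 14 of 26 rose and 4 fell in untreated CFs, 20 of 29 and 6 under IL-17, and 19 of 30 and 3 under TGF-β, where 19.5% of all genes were called higher and 20.4% lower, 20.3% and 21.9%, and 11.7% and 11.4%. With IAMP-siR-2 these were 13 and 6, 17 and 8, and 18 and 3, where the shares of all genes were 24.4% and 25.0%, 25.0% and 25.6%, and 15.1% and 14.8%. Under TGF-β, where 7 of the 10 members did not pass the test with each siRNA, Ccl7, a monocyte chemoattractant, rose by 1.04 (SE 0.0363) with IAMP-siR-1 and 1.28 (SE 0.0365) with IAMP-siR-2. Cxcl1 under IL-17 moved in the same directions as Nfkbia, at 611 to 657 CPM with IAMP-siR-1 and 197 to 205 CPM with IAMP-siR-2. Il6 was at 252 to 280.3 CPM with Scrambled, 502 to 547 CPM with IAMP-siR-1 and 764 to 801 CPM with IAMP-siR-2. By the naming rule given below, the targets for IAMP-siR-1 under IL-17 were Ccl20, Saa3 and Csf2. Cxcl1 and Il6 are therefore examples, and how many targets moved like Nfkbia was not counted.

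For each member the gene with the most similar profile was looked up over the 27 CF libraries, among 10700 genes whose mean reached 5 CPM, by Pearson's r of log2 CPM. These r are descriptions, since libraries share tables and groups. Nfkbia was most like Icam1, the leukocyte adhesion gene (r = 0.987), and r within the untreated, IL-17 and TGF-β tables alone was 0.801, 0.971 and 0.841. Rel was most like Nfkbiz (0.949), with an r of 0.12, 0.793 and 0.942 within those tables. Nfkb2 was most like Tnfrsf1b, a TNF receptor gene (0.95), with 0.942, 0.821 and 0.0582 within them. Relb was most like Casp4, the inflammatory caspase gene (0.969), with 0.951, 0.872 and −0.185. The pairs of Rel, Nfkb2 and Relb thus each had a low or negative r in 1 table, whereas the lowest for Nfkbia was 0.801. Chuk was most like Csnk1a1 (0.993), with 0.962, 0.898 and 0.761 within tables, and Ikbkb like Srgap1 (0.96), with 0.988, 0.969 and 0.848. Nfkb1 and Fmnl2 (0.946) had an r of −0.212, −0.802 and 0.667 within the tables. Rela, Nfkbib and Nfkbie were most like Stard5 (0.927), Rhog (0.957) and Slc25a1 (0.976), and within the TGF-β table those r were 0.368, −0.44 and −0.099.

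In hearts the members did not differ detectably between IAMP-KO and HET. Of the 10, 0 were called in either direction, where 0% of 16675 genes were, and 0 reached an unadjusted p below 0.05 in edgeR. DESeq2 called 0 of the members and 3 genes in all. Over all genes 324 were higher and 277 lower at an unadjusted p below 0.05 in edgeR. All 10 adjusted p were 1.0, and for every member the HET and IAMP-KO ranges overlapped. The largest difference was that of Nfkbia, with 34.9, 54.6, 61.2 and 60.1 CPM in HET and 52.6, 65.6, 48.9 and 63.6 CPM in IAMP-KO, a log2 fold change of 0.13 (95% interval −0.30 to 0.56). Rela was at 39.7, 40.1, 39.8 and 46.2 CPM in HET and 44.0, 45.5, 41.1 and 41.4 CPM in IAMP-KO (0.05, 95% interval −0.09 to 0.19), and Nfkb1 at 29.0 to 34.7 and 29.8 to 31.9 CPM (−0.02, 95% interval −0.16 to 0.11). Relb was lower by 0.12 (95% interval −0.35 to 0.10), at 5.73 to 6.93 CPM in HET and 4.83 to 6.00 CPM in IAMP-KO. The kinase genes lay at 13.7 to 14.6 CPM for Chuk and 17.5 to 19.9 CPM for Ikbkb in HET, and at 12.3 to 16.9 and 14.6 to 21.1 CPM in IAMP-KO. Nfkbie was the lowest member, at 0.914 to 1.34 CPM in HET and 0.863 to 1.23 CPM in IAMP-KO. In these whole hearts, fibroblast markers summed to 629 to 944 CPM and cardiomyocyte markers to 31930 to 35270 CPM, and a difference in fibroblasts alone was not measured.

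**Figure D5:**
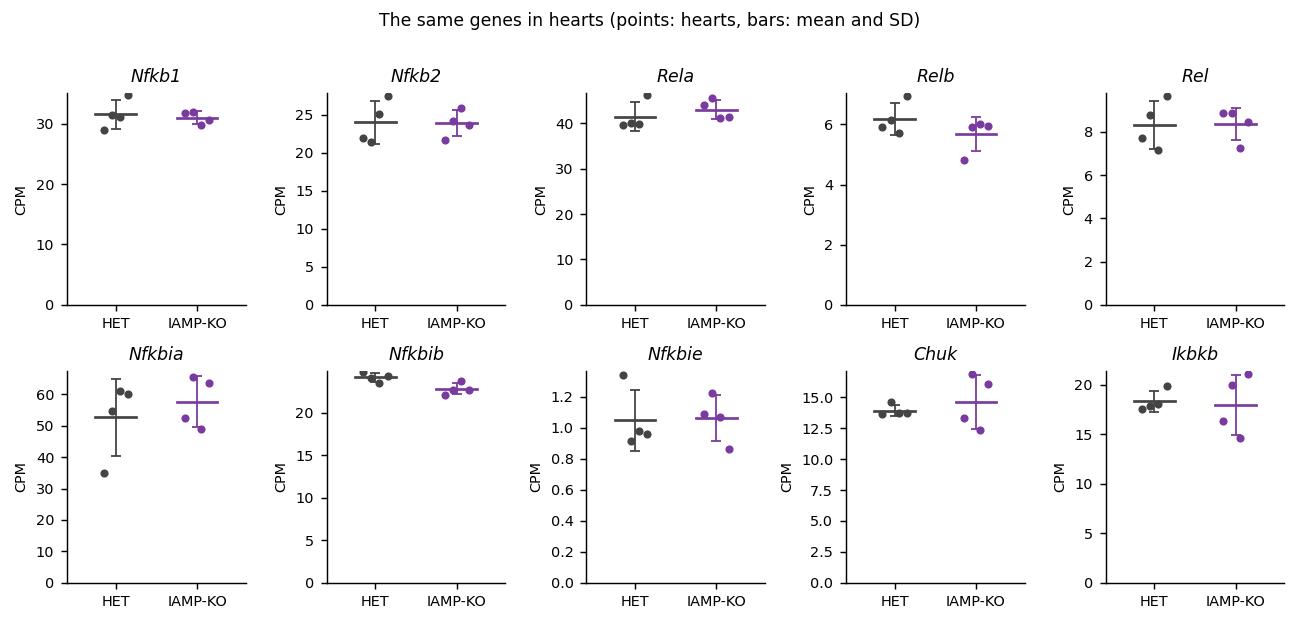
CPM of each member (y axis, from 0) in 4 HET (grey) and 4 IAMP-KO (purple) hearts, with points for hearts and bars for the mean and SD. The groups overlap in all 10 panels, and 1 HET heart lies low for Nfkbia, at 34.9 CPM.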

How the data were processed

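RNA-Seq was measured in 27 CF and 8 heart libraries. The authors aligned reads to GRCm38 with HISAT2 after trimming with cutadapt and assembled them with StringTie, per the labels and the study's methods, which state the versions, and the strand setting is not given in the sources used here. The CF tables deposited by the authors hold estimated counts per gene, used here as whole numbers. The commonest value of a gene seen in a single library was 6, so precision is lower than the totals imply. The heart table deposited by the authors holds counts per gene. The authors tested with DESeq2.

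Each CF table (9 libraries) and the hearts were fitted separately with edgeR 4.0.16 (R 4.3.3, limma 3.58.1; TMM, its default expression filter, robust quasi-likelihood), with Benjamini-Hochberg adjustment over all genes tested. Comparisons between tables and the 4 differences between them came from 1 fit of the 27 CF libraries. Scripts were tested on simulated data. Alternatives were DESeq2 1.42.0, other size factors, other filters, estimated counts divided by 6, a replicate block, the compared groups alone and leaving out each library. Genes outside the members were named as the up to 3 called genes of each list with the largest absolute log2 fold change and a mean of at least 1 CPM. Cxcl1 and Il6 with IAMP-siR-1 under IL-17 were named outside this rule. Gene lengths and overlaps came from GENCODE vM21. Members and gene lists were chosen with earlier results of these data known.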

Additional observations from a re-analysis of the deposited data

Results flagged for a closer look

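In 4 of 20 tests, of 10 members in HET and in IAMP-KO hearts, 1 heart stood apart from the rest of its group by Dixon's ratio of gap to range. Chance gives about 1 in 20 such tests, and these share the same 8 hearts, so they are not independent. These were Rela in HET (ratio 0.926), Relb in IAMP-KO (0.926), Nfkbie in HET (0.855) and Chuk in HET (0.943).

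The remaining results are differences between log2 fold changes of knockdown in stimulated and untreated CFs, by edgeR's quasi-likelihood test. With IL-17 and IAMP-siR-2, Nfkbia differed by −0.50. With TGF-β and IAMP-siR-1, Relb differed by −0.41 and Ikbkb by −0.15. With TGF-β and IAMP-siR-2, the differences were −0.21 for Nfkb1, −0.30 for Nfkb2, −0.35 for Rela, −0.58 for Relb, −0.59 for Nfkbib, −0.77 for Nfkbie, −0.31 for Chuk and −0.46 for Ikbkb. Table and stimulus cannot be told apart in any of them.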

How the results depend on the processing

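Counts of called members are given for each setting that moved them by more than 1.5 times. The threshold on the fold change left 0 members called in every knockdown comparison of CFs except IL-17 with IAMP-siR-2, where 1 remained higher (Nfkbie) and 0 lower. It left 2 higher with IL-17 and 4 higher with TGF-β in Scrambled CFs, and 0 in the differences between tables. In untreated CFs with IAMP-siR-1, the 1 lower member (Rela) became 0 without filtering, with the replicate block and with the compared groups alone. Under TGF-β, lower members became 2 with IAMP-siR-1 by DESeq2 and 2 with IAMP-siR-2 by the replicate block, higher members 1 with IAMP-siR-2 in the groups alone, and lower members between the siRNAs 1 without filtering and 1 with the replicate block. For the difference between TGF-β and untreated cells, lower members with IAMP-siR-1 became 1 with DESeq2's size factors, without filtering and in the groups alone, and higher members with IAMP-siR-2 became 1 (Rel) with at least 10 counts in every library and with estimated counts divided by 6. The cause was not tested.

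Some uncalled values near 0 took the other sign. Rel in untreated CFs with IAMP-siR-2 was 0.0018 without filtering. Nfkbia under TGF-β with IAMP-siR-2 was −0.0039 by DESeq2, −0.00385 with its size factors, −0.000212 with at least 10 counts and −0.012 in the groups alone. The difference of Nfkb2 between TGF-β and untreated cells with IAMP-siR-1 was −0.0019 without filtering.

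Leaving out single libraries gave these ranges of called members. Lower members ranged from 0 to 1 in untreated CFs with IAMP-siR-1, losing Rela without Scrambled 1 or 3 or any IAMP-siR-1 library, and from 1 to 2 under IL-17 with IAMP-siR-1, moved by Scrambled 2. Under TGF-β with IAMP-siR-1 they ranged from 0 to 1 (Scrambled 1 or 3, IAMP-siR-1 1 or 2) and higher members from 1 to 3 (IAMP-siR-1 3). With IAMP-siR-2 higher members ranged from 0 to 2 (Scrambled 1, IAMP-siR-2 1) and lower ones from 1 to 2 (Scrambled 2), and between the siRNAs lower ones ranged from 0 to 2 (IAMP-siR-1 2 or 3, IAMP-siR-2 2 or 3). In Scrambled CFs under TGF-β lower members ranged from 1 to 2 (TGF-β Scrambled 2). For differences between tables, lower members ranged from 1 to 2 for IL-17 with IAMP-siR-2 (IL-17 IAMP-siR-2 3) and from 1 to 2 for TGF-β with IAMP-siR-1, where 7 libraries lowered the count, and higher members from 0 to 1 with either siRNA under TGF-β (TGF-β Scrambled 2).

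Uncalled log2 fold changes whose sign depended on 1 library ranged as follows. In untreated CFs they were −0.0045 to 0.0272 for Chuk and −0.0573 to 0.0301 for Nfkbib with IAMP-siR-1, and −0.0321 to 0.0115 for Rel with IAMP-siR-2. Under TGF-β they were −0.019 to 0.135 for Chuk with IAMP-siR-1, and with IAMP-siR-2 −0.0256 to 0.0304 for Nfkbia, −0.0431 to 0.11 for Chuk, −0.0528 to 0.0326 for Nfkb2 and −0.0796 to 0.0234 for Relb. Between the siRNAs under TGF-β they were −0.0337 to 0.0692 for Relb, −0.0674 to 0.0146 for Rel, −0.0311 to 0.0263 for Ikbkb, −0.0029 to 0.0479 for Nfkb1 and −0.0665 to 0.0079 for Chuk. In hearts they were −0.0605 to 0.0834 for Rel, −0.0245 to 0.209 for Nfkbia, −0.0587 to 0.158 for Nfkbie, −0.0578 to 0.0642 for Nfkb2, −0.0624 to 0.0241 for Nfkb1, −0.113 to 0.0589 for Ikbkb and −0.0036 to 0.147 for Chuk. Nfkbie with IL-17 in Scrambled CFs ranged from −0.0505 to 0.202. Differences between IL-17 and untreated cells ranged from −0.0128 to 0.0728 for Nfkb2 with IAMP-siR-1 and −0.074 to 0.0218 for Nfkbib with IAMP-siR-2, and those between TGF-β and untreated cells with IAMP-siR-1 from −0.0352 to 0.0524 for Nfkb2, −0.044 to 0.0044 for Rela, −0.105 to 0.0075 for Nfkbia and −0.0328 to 0.126 for Chuk.

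Deviations of same-numbered CF libraries from their group means correlated at −0.207 to 0.154, so the numbers were not taken as pairs, and the replicate block values above are those that moved a count. In hearts no paired or replicate-blocked fit was made, since the heart columns carry no replicate number. Over all genes, the difference between IL-17 and untreated cells with IAMP-siR-1 had 170 higher and 217 lower calls by edgeR, 333 and 351 by DESeq2, and 139 and 274 in the groups alone.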
